A study of Mus musculus with 8 samples.

Results

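The genes described here are the receptors for the fat hormones leptin and adiponectin and the signalling partners they share, in hearts of db/db mice: Lepr, Leprot, Adipor1, Adipor2, Cdh13, Jak2 and Il6st. They were picked by name from the deposited table of 55487 genes, and all 7 were among the 13648 genes with enough reads to be tested. One group of 4 libraries came from hearts of db/db mice treated with DIZE, which the labels do not spell out and which is read here as the antiprotozoal drug diminazene aceturate. The other group of 4 came from hearts of db/db mice treated with vehicle. All 8 libraries therefore carry the db form of the leptin receptor gene, and no heart with an intact receptor was among the groups. The dose, route and length of treatment and the age and sex of the mice are not stated in the labels. Since nothing there ties each library to its own animal, every p-value reflects only how far these samples spread, which may be technical.

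Leptin is a hormone of fat cells that binds the leptin receptor, encoded by Lepr. The part of the receptor inside the cell is bound by the kinase JAK2. The long form has a long tail there that passes the signal to STAT3, while short forms lack most of that tail. The db mutation creates a splice site in Lepr, so that the transcript of the long form takes up an extra piece that ends its coding sequence early. Mice with 2 copies lack the long receptor and become obese and diabetic. Adiponectin, another fat cell hormone, acts through ADIPOR1 and ADIPOR2, membrane proteins of the PAQR family known for stimulating AMP-activated kinase and PPAR-alpha and for ceramidase activity. It is also held on the surface of heart and vessel cells by T-cadherin, the product of Cdh13, which has no tail inside the cell. Il6st encodes gp130, a receptor chain related to the leptin receptor and shared by interleukin-6, LIF and cardiotrophin-1, which likewise signals through JAK kinases and STAT3.

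The 3 coding ends of the leptin receptor are shown because the db mutation concerns which of them is made and because the counts per gene cannot tell them apart. Lepr (ENSMUSG00000057722) lies at chr4:101717404-101815352 on the plus strand of GRCm38 and has 7 annotated transcripts, of which 3 have long coding sequences. Below, the 30 coding bases that these 3 share just before they part, which end at position 101792070, are in lower case, and the first coding bases of each form's own end are in capitals, read from GRCm38 with the GENCODE annotation.
Lepr-201, the long form: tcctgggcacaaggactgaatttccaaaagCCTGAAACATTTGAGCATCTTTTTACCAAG
Lepr-202, a short form: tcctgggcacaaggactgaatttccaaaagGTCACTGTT
Lepr-203, a short form: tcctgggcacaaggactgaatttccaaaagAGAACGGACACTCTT
The own coding part has 819 bases in Lepr-201, of which the first 30 are printed, 9 bases in Lepr-202 and 15 bases in Lepr-203. Exon bases found in no other transcript number 905 in Lepr-201, 102 in Lepr-202 and 2320 in Lepr-203, so most of the transcript unique to a form lies outside the coding part in both short forms.

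Total counts ranged from 7447664 to 10161623 reads per library. Levels are given as CPM, the usual depth-scaled read count, with the TMM-adjusted number of reads in tested genes as library size. The 10 cardiomyocyte markers summed to between 46289 and 52739 CPM in DIZE libraries and between 30493 and 51389 CPM in vehicle libraries, and all 10 of them, among them Myh6 and Tnnt2, had reads, as a heart label calls for. Vehicle 1 stood apart with the lowest cardiomyocyte sum and the highest fibroblast, macrophage and atrial sums, at 2611, 746 and 836 CPM. Vehicle 2 held liver transcripts, whose 10 markers summed to 2195 CPM there and to between 69.2 and 101 CPM in the other 7 libraries. The log2 fold changes of 13638 genes between the groups also correlated with their GC content (Spearman rho 0.387, a description across genes). The source of this trend was not tested. Member GC content ran from 41.6% for Lepr to 53.6% for Adipor1. Values with this trend and the trend on length removed are given beside many of the named genes, though not beside all of them. The 6 atrial markers summed to between 31.6 and 148 CPM in DIZE libraries and between 49.6 and 836 CPM in vehicle libraries. In RNA from heart tissue, fewer cells of a type and less RNA per cell cannot be told apart.

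None of the 7 genes passed edgeR's quasi-likelihood test at an adjusted p of 0.05, a threshold that 5 of the 13648 tested genes, 0.0366%, passed, 0.022% upward and 0.0147% downward. At an unadjusted p of 0.05, 1 of the 7, Jak2, was past it, against 19.4% of all tested genes. DESeq2 called 0 of the 7 where it called 4.45% of all genes, and limma-voom called 0 of the 7 where it called 0.0293%. Adipor2 and Cdh13 were higher in DIZE and the other 5 lower, with a median log2 fold change of -0.07 over the 7 and -0.01 over all tested genes.

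**Figure D1:**
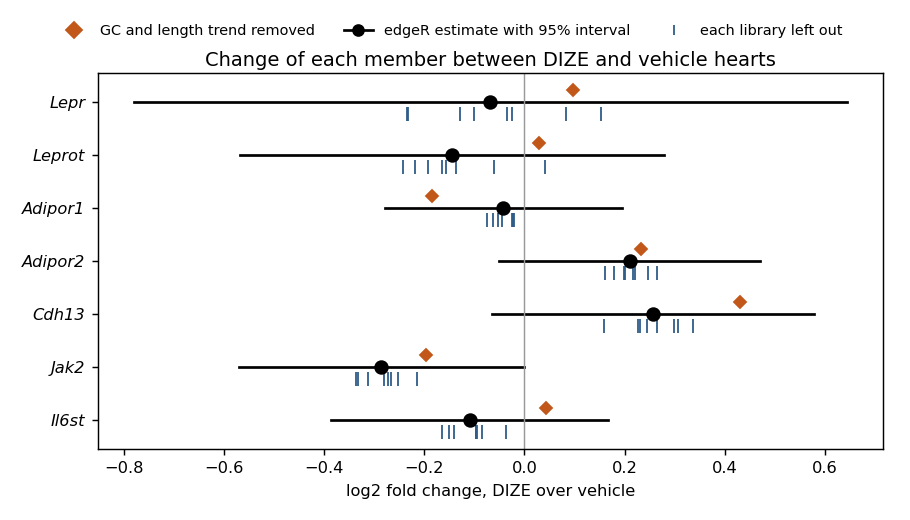
Log2 fold change of each of the 7 genes, DIZE over vehicle, on the horizontal axis, with its 95% interval from the edgeR standard error (n = 4 libraries per group). The estimates run from -0.29 for Jak2 to 0.26 for Cdh13, and the interval of Lepr, from -0.78 to 0.64, is the widest.

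Lepr RNA was scarce in these hearts, and its difference between the groups was smaller than the spread within them. It was counted 20, 38, 39 and 35 times in DIZE 1 to 4, and 53, 26, 31 and 26 times in vehicle 1 to 4. These reads gave 2.44, 5.0, 3.94 and 3.41 CPM in DIZE libraries and 5.44, 3.33, 4.16 and 2.55 CPM in vehicle libraries. The groups overlapped over most of their range, and the highest and the lowest library belonged to different groups. Lepr averaged 3.70 ± 1.07 CPM in DIZE and 3.87 ± 1.23 CPM in vehicle (SD, n = 4 each), a log2 fold change of -0.07 ± 0.29 SE (edgeR adjusted p = 0.921). The 95% interval ran from 0.582-fold to 1.56-fold, so changes within those bounds are not excluded by these libraries. Counting error alone was wide: the 20 reads of DIZE 1 have an exact 95% Poisson interval of 1.49 to 3.77 CPM and the 53 reads of vehicle 1 one of 4.07 to 7.11 CPM. Without vehicle 1 the log2 fold change was 0.15, and with the GC and length trends removed it was 0.10, so its direction was not fixed.

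Leprot (ENSMUSG00000035212, chr4:101647718-101659364, plus strand) encodes a small membrane protein that limits how much leptin receptor reaches the cell surface. Its annotated start lies 69686 bases before that of Lepr, and the mouse annotation gives the 2 genes 0 shared exon bases, so their reads are told apart. Leprot had 42.7, 34.1, 47.8 and 41.4 CPM in DIZE 1 to 4, against 62.4, 36.0, 43.8 and 41.2 CPM in vehicle 1 to 4. Vehicle 1 was the highest library and the other 7 lay together. The means were 41.5 ± 5.67 CPM in DIZE and 45.9 ± 11.5 CPM in vehicle (SD, n = 4 each; log2 fold change -0.14 ± 0.17 SE, edgeR adjusted p = 0.676). The sign of this value turned without vehicle 1, to 0.04, and with the GC and length trends removed, to 0.03.

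Per kilobase of exon, Lepr made up 1.52, 3.80, 2.17 and 2.17% of the summed Lepr and Leprot level in DIZE libraries, and 2.29, 2.43, 2.49 and 1.64% in vehicle libraries. Leprot therefore far outweighed Lepr in all 8 hearts. The mean share was 2.41 ± 0.974% in DIZE and 2.21 ± 0.391% in vehicle (SD, n = 4 each), with the groups overlapping.

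**Figure D2:**
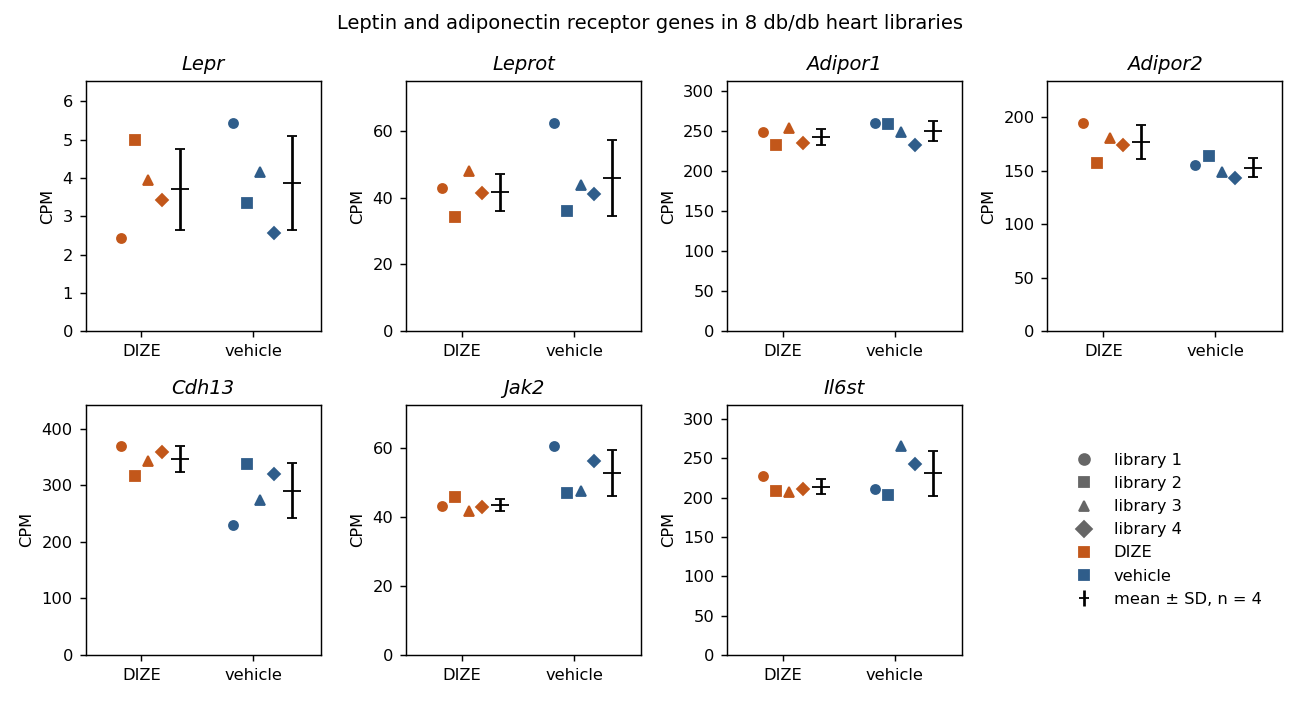
CPM of each of the 7 genes in every library, with DIZE left of vehicle in each panel, points for libraries and bars for the group mean with its SD (n = 4 each). Jak2 is the panel in which the groups do not overlap, with DIZE at 41.7 to 45.9 CPM and vehicle at 47.1 to 60.4 CPM, while vehicle 1 is the highest point for Lepr, Leprot and Jak2 and the lowest for Cdh13.

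Adipor1 (ENSMUSG00000026457, chr1:134415378-134433351, plus strand), the adiponectin receptor linked mainly to AMP-activated kinase, ranged only from 232 to 259.9 CPM over the 8 libraries. It had 248, 232, 254 and 235 CPM in DIZE 1 to 4, against 259.9, 258, 248 and 232 CPM in vehicle 1 to 4. The libraries of both groups covered the same narrow range. The means were 242 ± 10.3 CPM in DIZE and 249.6 ± 12.7 CPM in vehicle (SD, n = 4 each; log2 fold change -0.04 ± 0.10 SE, edgeR adjusted p = 0.841). The 95% interval ran from 0.824-fold to 1.14-fold. With the GC and length trends removed the log2 fold change was -0.18 (adjusted p = 0.390), and without both vehicle 1 and vehicle 2 it was 0.01.

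Adipor2 (ENSMUSG00000030168, chr6:119353150-119417704, minus strand), the receptor linked mainly to PPAR-alpha, had 195, 157, 181 and 174 CPM in DIZE 1 to 4, against 155, 164, 149 and 143 CPM in vehicle 1 to 4. DIZE 2 was the only DIZE library below the highest vehicle library, and it lay above the other 3 vehicle libraries. Adipor2 averaged 177 ± 15.8 CPM in DIZE and 153 ± 8.99 CPM in vehicle (SD, n = 4 each), 1.16-fold higher in DIZE without passing the test (log2 0.21 ± 0.11 SE, 95% interval -0.05 to 0.47, edgeR adjusted p = 0.304). Under the alternatives tried, its log2 fold change ran from 0.16 to 0.27 and its adjusted p from 0.231 to 0.668.

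The ratio of the 2 receptors, each per kilobase of exon, was 1.52, 1.76, 1.67 and 1.604 Adipor1 to 1 Adipor2 in DIZE 1 to 4, and 2.00, 1.87, 1.98 and 1.93 in vehicle 1 to 4. The groups did not overlap, with every DIZE value under the lowest vehicle value, and Adipor1 was above Adipor2 in every heart. Among single genes, groups did not overlap for 12.4% of all tested genes in either direction. How often ratios of 2 genes separate these groups was not examined. The mean ratio was 1.64 ± 0.103 in DIZE and 1.94 ± 0.0556 in vehicle (SD, n = 4 each), a difference of -0.31, and no test was made of a ratio of genes chosen for this description. With the GC and length trends removed, an alternative chosen after seeing the data, the ratios were 1.42, 1.72, 1.56 and 1.499 in DIZE and 2.30, 1.86, 2.08 and 2.00 in vehicle. The groups were again apart, by -0.51.

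The start regions of these 2 receptors, and that of Jak2 described below, are printed because they are the genes whose levels or ratio came nearest to separating the groups. Each runs from 250 bases before to 50 bases after the start of a RefSeq transcript on GRCm38.p6, 5′ to 3′ on the gene's strand. Capitals mark the GC box, spelled GGGCGG, and the CCAAT box on either strand; GC boxes that share bases are marked as 1 stretch. RefSeq windows matched 6 of the 7 genes.
Adipor1, chr1:134415128-134415427, plus strand: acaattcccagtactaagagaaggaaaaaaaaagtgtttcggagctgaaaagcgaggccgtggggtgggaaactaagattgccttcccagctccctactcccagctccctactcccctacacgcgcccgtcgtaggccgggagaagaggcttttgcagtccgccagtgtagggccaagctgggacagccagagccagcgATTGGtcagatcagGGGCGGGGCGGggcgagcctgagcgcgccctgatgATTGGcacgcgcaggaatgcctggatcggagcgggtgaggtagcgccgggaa
Adipor2, chr6:119388685-119388984, minus strand: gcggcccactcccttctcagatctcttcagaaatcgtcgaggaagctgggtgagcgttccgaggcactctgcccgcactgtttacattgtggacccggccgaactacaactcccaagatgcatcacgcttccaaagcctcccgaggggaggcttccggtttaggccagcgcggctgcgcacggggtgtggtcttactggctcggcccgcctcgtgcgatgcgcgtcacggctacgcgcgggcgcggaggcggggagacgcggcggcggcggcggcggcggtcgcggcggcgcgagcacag
Jak2, chr19:29251553-29251852, plus strand: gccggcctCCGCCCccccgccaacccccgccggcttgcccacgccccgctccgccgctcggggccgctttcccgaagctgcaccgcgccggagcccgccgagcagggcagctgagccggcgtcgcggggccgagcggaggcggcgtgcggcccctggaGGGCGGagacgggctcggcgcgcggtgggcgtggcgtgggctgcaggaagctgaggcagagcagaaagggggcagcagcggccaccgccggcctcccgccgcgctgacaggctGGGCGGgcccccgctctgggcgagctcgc
The Adipor1 window printed held 2 GC boxes and 2 CCAAT boxes, with 61.0% GC and 21 CpG. A second annotated start of Adipor1 has a window, chr1:134415414-134415713, with 3 GC boxes, 0 CCAAT boxes, 76.7% GC and 40 CpG. The Adipor2 window held neither motif, with 68.7% GC and 41 CpG. It surrounds a RefSeq start that lies inside the annotated gene, whose 5′ end on the minus strand is at 119417704. The sequence around that 5′ end was not examined. The Jak2 window held 3 GC boxes and no CCAAT box, with 81.0% GC and 44 CpG. Among 32851 mouse windows of this length, 35.7% held a GC box and 37.4% a CCAAT box. The spaced motif TTCNNNGAA, to which STAT proteins can bind, was in none of the windows of the 6 genes and in 8.3% of all windows, and TATAAA was in 13.6%. These are matches of letters and say nothing of a factor's binding.

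Cdh13 (ENSMUSG00000031841, chr8:118283733-119324921, plus strand), which encodes the adiponectin-binding T-cadherin, was the most abundant of the 7 in CPM. It had 369, 317, 342 and 359 CPM in DIZE 1 to 4, against 229.9, 337, 275 and 320.5 CPM in vehicle 1 to 4. Vehicle 1 and vehicle 3 lay below every DIZE library, and vehicle 2 and vehicle 4 within their range. The means were 347 ± 22.8 CPM in DIZE and 290.5 ± 48.2 CPM in vehicle (SD, n = 4 each), 1.19-fold higher in DIZE without passing the test (log2 0.26 ± 0.13 SE, 95% interval -0.07 to 0.58, edgeR adjusted p = 0.307). The log2 fold change was 0.16 without vehicle 1 (adjusted p = 0.488), the library with the lowest cardiomyocyte sum of 30493 CPM, and 0.43 with the GC and length trends removed (adjusted p = 0.162). The part of vehicle 1's make-up in the Cdh13 difference was not tested beyond leaving it out.

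T-cadherin is made by endothelial cells as well as heart muscle, so Cdh13 was also set against endothelial genes. The 12 endothelial markers summed to between 1546 and 1908 CPM in DIZE and between 1599.9 and 2236 CPM in vehicle, with 9 of 12 lower in DIZE and none past the test. Cdh13 equalled 20.8, 20.5, 18.0 and 19.1% of that sum in DIZE 1 to 4, and 14.4, 20.6, 12.3 and 19.4% in vehicle 1 to 4. Vehicle 1 and vehicle 3 were again the low ones, and vehicle 2 and vehicle 4 lay among the DIZE libraries. Against the endothelial cadherin Cdh5 alone, the ratio of CPM was 1.56, 1.54, 0.983 and 1.05 in DIZE and 1.08, 1.42, 0.786 and 1.28 in vehicle, and there the groups overlapped. The cardiomyocyte markers summed to 49830, 52739, 46913 and 46289 CPM in DIZE 1 to 4. In vehicle 1 to 4 they summed to 30493, 51389, 43291 and 45618 CPM, so vehicle 1 and vehicle 3 were the lowest there too. A link between these sums and Cdh13 was not tested.

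Jak2 (ENSMUSG00000024789, chr19:29251828-29313080, plus strand), the kinase that carries the signal of the leptin receptor, had 43.1, 45.9, 41.7 and 42.8 CPM in DIZE 1 to 4, against 60.4, 47.1, 47.5 and 56.3 CPM in vehicle 1 to 4. It was the 1 gene of the 7 whose groups did not overlap, with DIZE below, as was the case for 12.4% of all tested genes in either direction and 5.26% with DIZE below. The gap was small, between 45.9 CPM in DIZE 2 and 47.1 CPM in vehicle 2, and the DIZE libraries were close together. Jak2 averaged 43.4 ± 1.79 CPM in DIZE and 52.8 ± 6.63 CPM in vehicle (SD, n = 4 each), a log2 fold change of -0.29 ± 0.12 SE (edgeR unadjusted p = 0.0310, adjusted p = 0.216). It stood at rank 1960 of all tested genes by p. Its adjusted p ran from 0.145 to 0.559 over the alternatives, with the log2 fold change between -0.34 and -0.20. The value of -0.20 was the one with the GC and length trends removed. Sums of cell type markers overlapped between the groups, and no marker passed the test. Single markers did not all overlap. The fibroblast markers Ddr2, Pi16 and Mfap5 had every DIZE library below every vehicle library, at log2 -0.81, -0.62 and -0.63, and the other fibroblast markers overlapped. Actn2 of the cardiomyocyte list and Lipe of the adipocyte list had DIZE above, at 0.61 and 0.59. The shares over all tested genes were 5.26% with DIZE below and 7.17% with DIZE above. Of all 13648 tested genes, 7071 were lower in DIZE. Fibroblast markers, 9 of 10 lower in DIZE, summed to between 1376 and 1909 CPM in DIZE. In vehicle 1 to 4 they summed to 2611, 1576, 1864 and 1752 CPM. Macrophage markers, 9 of 10 lower, summed to between 426 and 507 CPM in DIZE and to 746, 483, 512 and 538 CPM in vehicle 1 to 4. Vehicle 1 was thus the highest library for both, while 1 of 10 cardiomyocyte markers was lower. None of these markers was at 0 in all libraries, and their part in the Jak2 difference was not tested.

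Il6st (ENSMUSG00000021756, chr13:112464070-112510086, plus strand), the gp130 chain, had 228, 209, 208 and 211 CPM in DIZE 1 to 4, against 211, 204, 265 and 243 CPM in vehicle 1 to 4. Vehicle 3 and vehicle 4 lay above every DIZE library and vehicle 1 and vehicle 2 within or below their range. The means were 214 ± 9.44 CPM in DIZE and 231 ± 28.4 CPM in vehicle (SD, n = 4 each; log2 fold change -0.11 ± 0.11 SE, edgeR adjusted p = 0.622), and with the GC and length trends removed the value was 0.04. Without vehicle 3 it was -0.04.

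To compare levels between genes, CPM were divided by the length of all annotated exons in kilobases. Over the 8 libraries Adipor1 was highest, with a mean of 49.0 and a range of 46.2 to 51.7 CPM per kb. Cdh13 (mean 28.4, 20.5 to 32.8), Adipor2 (27.6, 23.9 to 32.6), Leprot (23.0, 18.0 to 32.9) and Il6st (20.02, 18.4 to 23.9) followed, with each overlapping the next in that order. Jak2 (mean 9.56, 8.30 to 12.02) and Lepr (0.537, 0.346 to 0.772) each lay clear below the gene before. The order at the top depended on the length used. Per kilobase of the longest coding transcript, Cdh13 averaged 84.2 (60.7 to 97.4) and Adipor1 71.4 (67.4 to 75.4) CPM per kb, and these ranges overlapped.

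**Figure D3:**
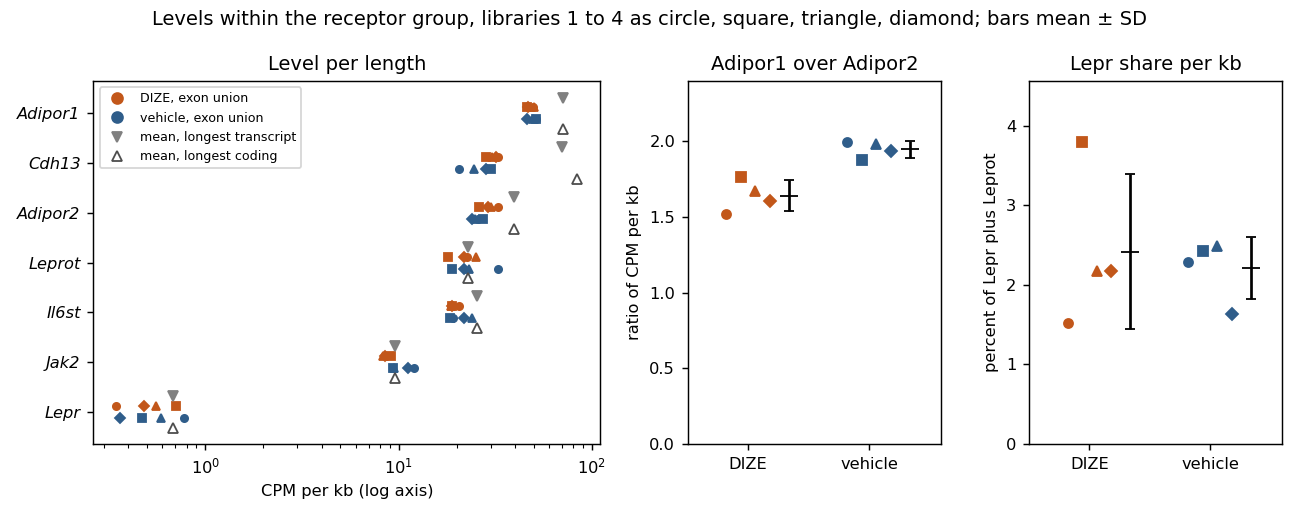
Levels of the 7 genes in CPM per kilobase of exon on a log axis, and the Adipor1 to Adipor2 ratio and the Lepr share per library, with DIZE left of vehicle. Lepr lies at 0.346 to 0.772 CPM per kb, far under the others, and the Adipor1 to Adipor2 ratio is 1.52 to 1.76 in DIZE and 1.87 to 2.00 in vehicle.

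The titles of the samples come in forms with and without the letters db, with libraries 1 and 2 of each group in the first form and 3 and 4 in the second. The labels do not say what the form stands for. Jak2 had a log2 ratio of DIZE to vehicle means of -0.27 within the first form and -0.30 within the second (n = 2 against 2 in each). Adipor2 had 0.14 and 0.28, and Cdh13 0.28 and 0.24, so these 3 kept their direction within both. Lepr (-0.24 and 0.13), Leprot (-0.36 and 0.07), Adipor1 (-0.11 and 0.03) and Il6st (0.07 and -0.28) had opposite signs in the first and second form. The difference between forms was not tested.

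The hormones that these receptors bind are products of fat cells, and their RNA was nearly absent from the hearts. Lep, the leptin gene, had 0 reads in each of the 4 DIZE libraries and 16, 7, 0 and 10 reads in vehicle 1 to 4. The 33 vehicle reads amount to 0.938 CPM pooled over the group. Set against a floor of 3 reads over the DIZE group, which is 0.0835 CPM, this is an 11.2-fold difference. The 95% counting interval of the ratio begins lower, at 8.635-fold, and covers counting error only, not the spread between libraries. Adipoq, the adiponectin gene, had 0, 0, 0 and 6 reads in DIZE 1 to 4 and 18, 12, 1 and 6 reads in vehicle 1 to 4. Most reads of both hormones were thus in vehicle 1, 2 and 4. Of the 6 hormone genes listed, the 2 that were tested were Nampt and Rarres2, at -0.25 ± 0.13 and -0.43 ± 0.26 on the log2 scale without passing, and Rarres2 was at -0.14 without vehicle 1. With the GC and length trends removed Nampt was at -0.13. Lep and Adipoq had too few reads for the filter on low counts. In a fit of all genes with at least 1 read, Lep had an edgeR adjusted p of 0.0531 and Adipoq one of 0.369.

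Other fat cell genes had reads in the same vehicle libraries. Cidec, a lipid droplet gene, had 3, 0, 0 and 1 reads in DIZE 1 to 4 and 27, 26, 0 and 9 in vehicle 1 to 4. Plin1, which coats lipid droplets, had 3, 0, 0 and 6 reads in DIZE and 9, 11, 0 and 10 in vehicle. Cfd, the adipsin gene, had 3, 1, 1 and 3 reads in DIZE and 33, 10, 0 and 4 in vehicle. Pooled over the 4 libraries, the vehicle level over the DIZE level was 15.8 for Cidec (95% counting interval 5.88 to 59.9), 6.30 for Adipoq (2.64 to 18.3), 6.0 for Cfd (2.81 to 14.7) and 3.40 for Plin1 (1.58 to 8.15). These intervals cover counting error only, and none of these 4 passed the unfiltered fit, with adjusted p from 0.310 to 0.536. Vehicle 3 had 1 Adipoq read and 0 of the other 4, so the reads did not follow the group alone. The atrial markers summed to 836, 105, 49.6 and 347 CPM in vehicle 1 to 4, and to 42.6, 31.6, 83.8 and 148 CPM in DIZE 1 to 4. A link between these sums and the fat cell reads was not tested. Of the 10 adipocyte markers, Ucp1 was at 0 in all 8 libraries. The list's sum of 680 to 1017 CPM in DIZE and 329 to 714 CPM in vehicle came mostly from Lipe and Pnpla2, lipase genes that heart muscle also uses. The part of fat tissue in these reads was not tested.

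**Figure D4:**
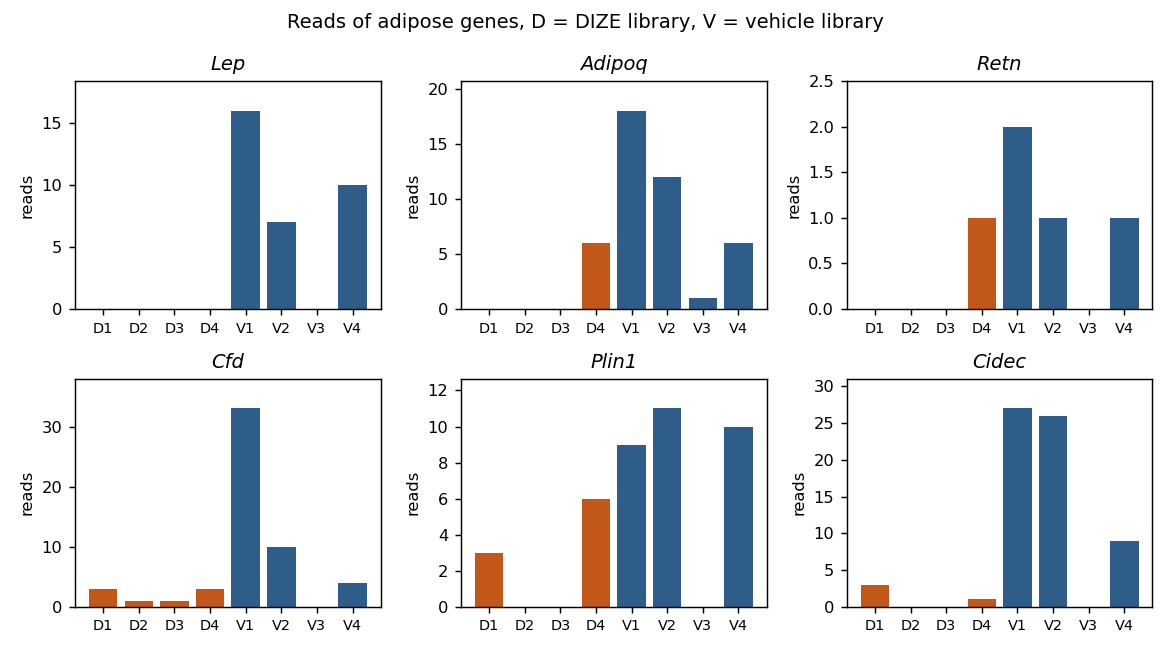
Reads of Lep, Adipoq and other fat cell genes in each library, with the 4 DIZE libraries left of the 4 vehicle libraries. Lep is at 0 in every DIZE library and at 16, 7, 0 and 10 reads in vehicle 1 to 4, and vehicle 3 has 0 or 1 read of each.

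Of 108 listed genes of the leptin, gp130 and adiponectin pathways and of the receptors' relatives, 88 were tested and none passed the threshold. By direction 47 were higher in DIZE and 41 lower, with a median log2 fold change of 0.01. At an unadjusted p of 0.05, 9 were higher, against 9.11% of all tested genes, and 4 were lower, against 10.3%. Groups did not overlap for 5 genes with DIZE above, against 7.17% of all tested genes, and for 1 with DIZE below, against 5.26%. DESeq2 called 3 of the 88, which were Clcf1, Appl1 and Prkab1, and 4.45% of all genes.

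**Figure D5:**
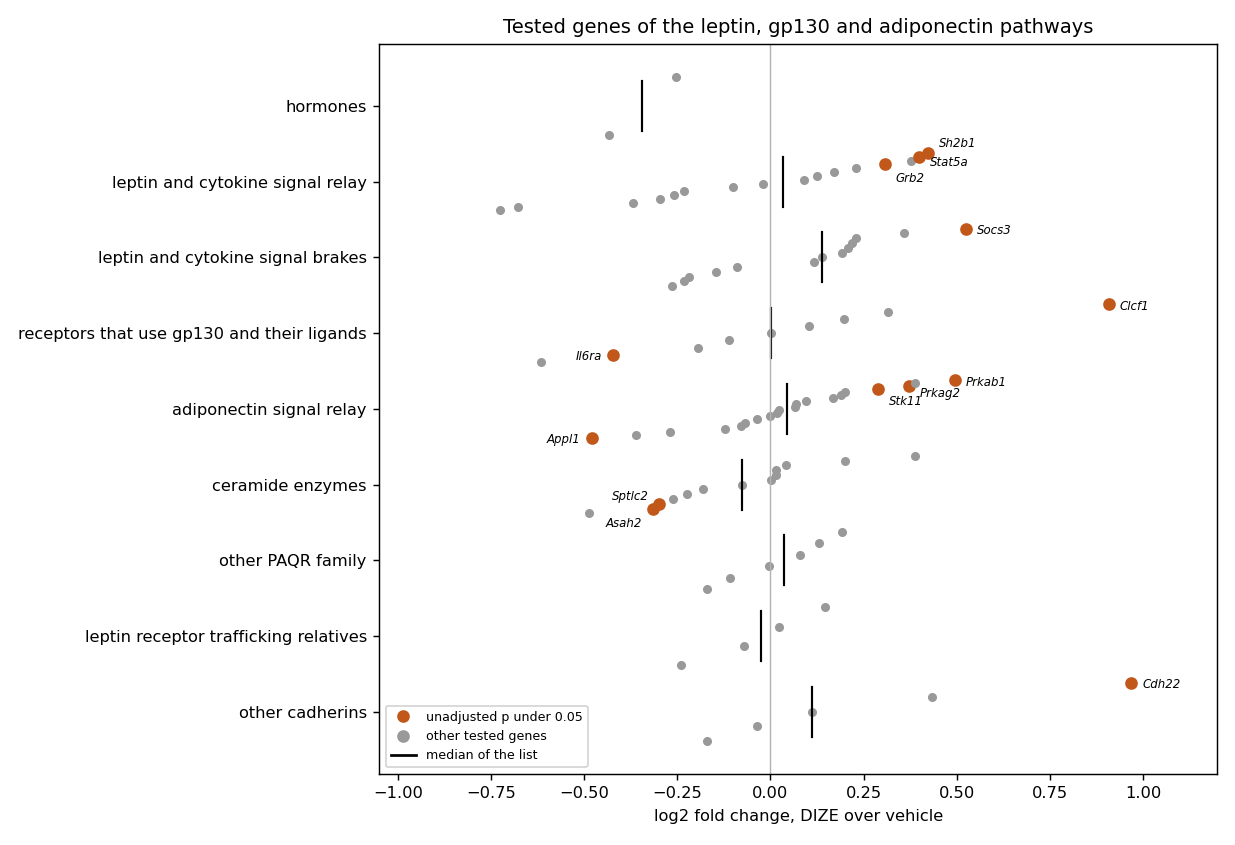
Log2 fold change, DIZE over vehicle, of the 88 tested pathway genes, 1 row of points per list, with the list's median as a vertical bar and genes with an unadjusted p under 0.05 in colour. Cdh22, at 0.97, and Clcf1, at 0.91, lie farthest to the right, and no gene passes the adjusted threshold.

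Among the 16 tested genes of the signal relay that follows JAK2, 8 were higher and 8 lower in DIZE, with a median of 0.03. Sh2b1, an adaptor that binds JAK2 and strengthens its signal, had 99.3, 94.7, 89.2 and 91.5 CPM in DIZE and 48.3, 77.6, 72.0 and 81.4 CPM in vehicle. All DIZE libraries lay above all vehicle libraries, of which vehicle 1 was lowest (log2 0.42 ± 0.15 SE, edgeR adjusted p = 0.177). Its log2 fold change was 0.28 without vehicle 1 and 0.18 with the GC and length trends removed. Stat5a, a transcription factor, had log2 0.40 ± 0.15 and Grb2, an adaptor, 0.31 ± 0.12, with edgeR adjusted p of 0.190 and 0.193, and with the GC and length trends removed they had 0.20 and 0.28. Stat3, the main transcription factor downstream of leptin and gp130, had 244, 225, 200.2 and 191 CPM in DIZE and 128, 205, 193 and 283 CPM in vehicle, with the DIZE libraries inside the vehicle range. Stat3 was chosen after its values were seen.

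Of 13 tested brakes on the signal, 8 were higher and 5 lower in DIZE, with a median of 0.14. Socs3, which STAT3 switches on and which then blocks gp130 and the leptin receptor, had 9.89, 6.58, 6.87 and 6.73 CPM in DIZE, against 6.46, 4.36, 3.75 and 6.08 CPM in vehicle. The groups did not overlap, by a small margin, and the highest DIZE library stood apart. The log2 fold change was 0.53 ± 0.23 SE without passing the test (edgeR adjusted p = 0.234), and 0.29 with the GC and length trends removed. Socs5 and Socs4, of the same family, were on the other side of 0 at -0.22 and -0.26, and at -0.15 and -0.075 with the GC and length trends removed.

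Of 9 tested receptors and ligands of the gp130 family, 5 were higher and 4 lower, with a median of 0.00. Clcf1, a cytokine that signals through gp130, had the smallest p of all listed genes. It had 8.18, 9.60, 7.28 and 7.90 CPM in DIZE, against 3.39, 5.39, 3.62 and 5.10 CPM in vehicle. Every DIZE library lay above every vehicle library, with a mean 1.88-fold higher (log2 0.91 ± 0.20 SE, edgeR adjusted p = 0.0888). The value did not pass the test. It did pass without vehicle 2 (1.02, adjusted p = 0.0498), without the filter on low counts (0.93, adjusted p = 0.0317) and in DESeq2 (0.91, adjusted p = 0.00800). Clcf1 did not pass under any other alternative, with an adjusted p of up to 0.216, reached without DIZE 4. With the GC and length trends removed its log2 fold change was 0.72 (adjusted p = 0.105). Clcf1 shares 8.17% of its exon bases with another gene on the same strand, so some of its reads may not be its own. Il6ra, the interleukin-6 receptor, had 12.9, 10.4, 7.58 and 7.80 CPM in DIZE and 10.9, 13.0, 13.4 and 14.4 CPM in vehicle (log2 -0.42 ± 0.19 SE, edgeR adjusted p = 0.256). DIZE 2, 3 and 4 lay below all vehicle libraries, and DIZE 1 lay among them. Il11ra1, the interleukin-11 receptor, had log2 0.20 ± 0.11, and 0.014 with the GC and length trends removed.

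All 20 genes of the adiponectin relay were tested, 12 higher and 8 lower in DIZE, with a median of 0.04. Appl1, an adaptor that binds the adiponectin receptors, had 38.6, 43.6, 38.4 and 34.5 CPM in DIZE, against 63.1, 47.8, 55.5 and 49.6 CPM in vehicle. It was the 1 tested gene of the lists with every DIZE library below every vehicle library (log2 -0.48 ± 0.13 SE, edgeR adjusted p = 0.107, DESeq2 adjusted p = 0.0238). With the GC and length trends removed its log2 fold change was -0.28. Prkab1, a subunit of AMP-activated kinase, had 45.9, 45.1, 61.8 and 62.2 CPM in DIZE, against 33.1, 41.0, 38.4 and 40.2 CPM in vehicle. Again the groups did not overlap, and DIZE 3 and DIZE 4 were the highest (log2 0.50 ± 0.14 SE, edgeR adjusted p = 0.126, DESeq2 adjusted p = 0.0414). Removal of the GC and length trends gave Prkab1 a log2 fold change of 0.35. Prkag2, another subunit of that kinase, had log2 0.37 ± 0.13 (edgeR adjusted p = 0.172), and it overlaps an antisense gene.

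Of 13 tested ceramide enzymes, 6 were higher and 7 lower in DIZE, with a median of -0.08. Asah2, a ceramidase, had log2 -0.32 ± 0.14 and Sptlc2, a subunit of the enzyme that begins ceramide synthesis, -0.30 ± 0.13, both without passing (edgeR adjusted p = 0.246). With the GC and length trends removed they had -0.09 and -0.16. Among 6 tested PAQR relatives of the adiponectin receptors, 3 were higher and 3 lower, between -0.17 and 0.19. Among 4 tested trafficking relatives of Leprot, 2 were higher and 2 lower, between -0.24 and 0.15. Among 5 tested cadherins other than Cdh13, 3 were higher and 2 lower. Cdh22 had 25.3, 26.4, 19.1 and 14.5 CPM in DIZE, against 5.34, 17.2, 8.72 and 12.4 CPM in vehicle (log2 0.97 ± 0.31 SE, edgeR adjusted p = 0.153), and DIZE 4 lay below vehicle 2. Removal of the GC and length trends gave Cdh22 a log2 fold change of 0.75. Cdh2, the cadherin of heart muscle junctions, had log2 0.43 ± 0.20, and 0.25 without vehicle 1.

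Among tested genes that averaged 5 CPM or more and have a symbol that is no placeholder, those whose log2 CPM most closely followed each of the 7 over the 8 libraries are given as a description, since the points share library and depth. For Cdh13 they were Fbxo31, Coro6 and Dennd6b (Pearson r 0.986, 0.986 and 0.984). Fbxo31 had 204 to 279 CPM in DIZE and 110.3 to 220.0 CPM in vehicle, Coro6 624 to 843 and 354 to 717 CPM. For Adipor2 they were Ucp3, an uncoupling protein of muscle, Tarbp2 and Htra2 (r 0.950, 0.930 and 0.928). Ucp3 had 198 to 329.5 CPM in DIZE and 128 to 244 CPM in vehicle. For Jak2 they were Vps4b, Cybc1 and Ccdc34 (r 0.978, 0.974 and 0.963), and Vps4b is among the listed trafficking relatives. For Adipor1 they were Ndufb8, Rpl28 and Rnf135 (r 0.966, 0.962 and 0.951), for Leprot Fxyd6, Hexa and Cnpy4 (r 0.971, 0.959 and 0.954), for Il6st Pnisr, Spaca6 and Ppp1r18 (r 0.948, 0.948 and 0.945) and for Lepr Ufc1, Nxt2 and Fam45a (r 0.976, 0.957 and 0.950). By Spearman's rho in place of Pearson's r, 2 of the 3 for Adipor2, 1 of the 3 for Lepr, Leprot and Adipor1, and 0 of the 3 for Cdh13, Jak2 and Il6st stayed among the nearest 3.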

How the data were processed

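Per the labels' protocols, heart RNA was extracted with TRIzol, and poly(A) libraries came from a TruSeq stranded mRNA kit, read as pairs of 151 bases on a NovaSeq6000. Per the submitters' processing notes, STAR 2.7.3, HTSeq 0.6.1p1, edgeR, R 4.1 and the build mm10 were used. No settings, annotation release or use of strand in counting are given in the sources used here. The authors deposited raw counts, whole numbers of reads for 55487 Ensembl genes in 8 columns, each tied to its sample by its description. There were 0 columns of other samples. A symbol was found by ID for 55141 genes and not for 346. Positions, lengths and GC content came from GENCODE M21 on GRCm38 (mm10).

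The main test was edgeR 4.0.16 (R 4.3.3), quasi-likelihood, robust, two-sided, with TMM factors and filterByExpr (minimum count 10, minimum total 15), all 8 libraries and no covariate. P-values were adjusted by Benjamini-Hochberg over all tested genes, with a threshold of 0.05. Intervals of fold changes use the standard error with 6 degrees of freedom. The p-values of edgeR use degrees of freedom that it estimates, so intervals and p-values need not match. Intervals of Lepr reads are exact Poisson intervals, and those of pooled vehicle to DIZE ratios come from exact binomial intervals. Both cover counting error only. Totals of 7447664 to 10161623 reads make 1 read worth 0.0975 to 0.134 CPM, so low genes are imprecise. No pair of libraries agreed within sampling noise (lowest chi-square per degree of freedom 5.54).

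Alternatives were DESeq2 1.42.0, limma-voom (limma 3.58.1), other size factors and filters, removal of GC and length trends, the title's number or form as a block, 1 surrogate variable (sva 3.50.0) and leaving out each library. All 7 genes were named, as were up to 3 genes per pathway list with the smallest p and the 3 genes most like each of the 7. The members, lists and tests were chosen with earlier results of these data known. Of the listed genes, 1 is counted but not reported here.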

Additional observations from a re-analysis of the deposited data

Results flagged for a closer look

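In 4 of the 70 groups of 4 libraries examined, 1 library lay far from the other 3 by Dixon's criterion, which chance alone meets in about 1 of 20 groups. Il6st had 227.8 CPM in DIZE 1 and 207.6 to 210.9 CPM in the other DIZE libraries. Socs3 had 9.889 CPM in DIZE 1 and 6.58 to 6.87 CPM in the other DIZE libraries. Paqr9, a PAQR relative of the adiponectin receptors, had 65.37 CPM in vehicle 1 and 92.3 to 97.7 CPM in the other vehicle libraries. Cdh11, a cadherin of fibroblasts, had 17.44 CPM in vehicle 1 and 8.98 to 10.01 CPM in vehicle 2 to 4. Vehicle 1 also had the highest sum of fibroblast markers, 2611 CPM. The part of that difference in Cdh11 was not tested.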

How the results depend on the processing

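None of the 7 genes was called under any alternative run. Adipor2, Cdh13 and Jak2 kept their direction in all 19, while the sign turned for Lepr in 4 of 18, Leprot in 2, Adipor1 in 1 and Il6st in 1. With GC and length trends removed, Lepr was at 0.10, Leprot at 0.029 and Il6st at 0.043, and the Adipor1 to Adipor2 difference was -0.51. Leaving out each library in turn gave Lepr -0.23 to 0.15, Leprot -0.24 to 0.042, Rnf41 -0.14 to 0.029, Paqr8 -0.30 to 0.063 and Cdh11 -0.27 to 0.12. Leaving out both vehicle 1 and vehicle 2, chosen after seeing the data, gave Lepr 0.16, Adipor1 0.013, Rarres2 0.021, Rnf41 0.055 and Cdh11 0.10. Of 493 values for 26 named pathway genes, 481 kept direction and call, 7 turned and 5 became calls. The number of pathway genes called was 3 with DESeq2, 1 without the filter and 0 to 1 with a library left out.

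The count over all genes, 5, depended on the setting: it was 606 with DESeq2, 386 without the filter, 44 with GC and length trends removed, 9 with title form as a block, 0 with 1 surrogate variable, 65 without vehicle 1 and vehicle 2, and 0 to 240 with a library left out, highest without vehicle 2. It was 9 without vehicle 1, 1 without vehicle 3 and 0 without vehicle 4 or any DIZE library. The causes were not tested. The titles share 2 numbers between the groups. Number 1 is held by 1 library of each group and number 4 by 2 of each, and the labels do not say what a number marks, so no pairs were formed. With the title number as a replicate block 0 genes were called. The 20 to 53 reads of Lepr per library limit what could be seen.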
